A study of Gallus gallus with 6 samples.

Results

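Nuclear genes of mitochondrial respiration, the citrate cycle, the mitochondrial ribosome, protein import and the inner-membrane carriers were examined in livers of Arbor Acres breeder roosters. The mature group held 3 libraries, each from the liver of 1 rooster aged 40 weeks. The immature group held 3 libraries, each a pool of RNA from the livers of 4 chicks aged 1 day, 12 chicks in all. All birds had been without feed for 12 hours, and ribosomal RNA was removed before strand-specific sequencing. In the study's read counts, each immature library had fewer mapped reads, and a lower mapped share, than each mature library. Age therefore cannot be told apart from pooling or from these read differences, and the spread between single chicks was averaged within each pool.

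The members were the mRNAs of the authors' deposited table with the KEGG term for oxidative phosphorylation or for the citrate cycle, or with a symbol of one of these families: NDUF, COX, UQCR, SDH, ATP5, MRPL, MRPS, TIMM, TOMM, SLC25 and CHCHD, and DHTKD1. This rule gave 37 of the 1480 listed mRNAs, of which 15 were found by both KEGG term and symbol, 6 by KEGG term alone and 16 by symbol alone. A further 2 rows that matched were left out by the rule. For each mRNA the table gives a single FPKM for each group, a fragment count scaled to transcript length and to the mapped fragments of the library. No replicate error, test or counting interval could therefore be given, and the number of fragments behind a value is unknown. The table holds only transcripts that the authors had called different between these groups, and the smallest fold between the groups in it was 2.00. That a member differed by about 2-fold or more is therefore a property of the table, while the direction and size of the difference were not set by the rule. A gene of these families that is not listed has no value here and is not counted as unchanged.

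In mitochondria, the citrate cycle oxidises acetyl groups and hands electrons to NADH and to complex II. Complexes I, III and IV pass electrons on to oxygen and pump protons across the inner membrane, and ATP synthase uses the returning protons to make ATP. Carriers of the SLC25 family move ATP, phosphate, citrate and other metabolites across the same membrane. A few respiratory subunits are encoded in mitochondrial DNA and are made on the mitochondrial ribosome, whose own proteins come from nuclear genes. The liver relies on this oxidation to power gluconeogenesis, urate synthesis in birds, and lipid synthesis.

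Of the 37 members, 34 were listed lower and 3 higher in mature livers, against 45.1% lower among all 1480 listed mRNAs. In bulk tissue, fewer cells of a type and less RNA per cell cannot be told apart. All differences in the text are mature minus immature, taken after adding 1 to each FPKM and converting to log2, which makes the change of weakly expressed mRNAs look smaller than it is. On this scale 33 members were at least 2-fold lower, against 29.8% of all listed mRNAs, and 1 was at least 2-fold higher, against 35.9%. These background shares are those of the table analysed. They move with the scaling and need not hold for another list of the same comparison. With the summed FPKM of all listed mRNAs made equal between the groups, 39.3% of all listed mRNAs were at least 2-fold lower and 10.3% higher, and with their median difference set to 0, 45.1% were lower and 222 of the 1480 higher. Under each of these scalings 34 members were at least 2-fold lower and 0 higher. With the 10 most abundant mRNAs left out of the sums, 32.8% of all listed mRNAs were at least 2-fold lower and 32.8% higher. There 34 members were at least 2-fold lower and 1 higher. Each of these scalings lowered the mature values, so members already 2-fold lower had to stay so. No scaling in the other direction was run. In the deposited FPKM the median difference of the members was -1.16, and that of all listed mRNAs was 0.64. The summed FPKM of the members was 3687 in mature and 8678 in immature livers, so that the immature sum was 2.35 times the mature one.

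Most members were abundant, which bears on the comparison, since mRNAs of low level lose more of their difference on this scale. A mean FPKM of at least 10 over the groups was reached by 34 members and by 456 listed mRNAs. Of these 34 members, 33 were listed lower and 32 were at least 2-fold lower. Among the 456 mRNAs, 50.7% were listed lower and 47.4% were at least 2-fold lower. The 3 members under this level were COX10, SUCLA2 and SLC25A38.

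The differences of most members lay close together. Of the 34 lower members, 22 (64.7%) differed by less than 2.5-fold in plain FPKM, while this held for 31.9% of all lower mRNAs of the table. At a mean FPKM of at least 10 the shares were 63.6% of lower members and 41.6% of lower mRNAs. Other mitochondrial genes were nearer to the members. The share was 57.1% of the 14 lower genes on a list of other mitochondrial functions. Among other lower mRNAs with the GO term mitochondrion it was 46.0%, and 48.8% at a mean FPKM of at least 10. Of the 37 members 3, SLC25A4, NDUFV1 and ATP5B, were at least 4-fold lower on log2(FPKM + 1), beside 79 of the 1480 listed mRNAs (5.34%). At a mean FPKM of at least 10 it was 3 of 34 members, beside 43 of 456 listed mRNAs (9.43%). Differences of this size were thus not clearly rarer among the members. In plain FPKM OGDH also was at least 4-fold lower, at 4.38-fold. The order of the members by level was much the same in the groups, with a Spearman rank correlation of 0.94 across the 37 members. This is a description across genes that share the same libraries, and it was not computed over all listed mRNAs. The levels of the members ran from 2.31 to 463 FPKM in mature livers, far wider than most differences. A high correlation is therefore nothing particular to the members. CHCHD2 had the highest level of all members in both groups and SLC25A38 the lowest.

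**Figure D1:**
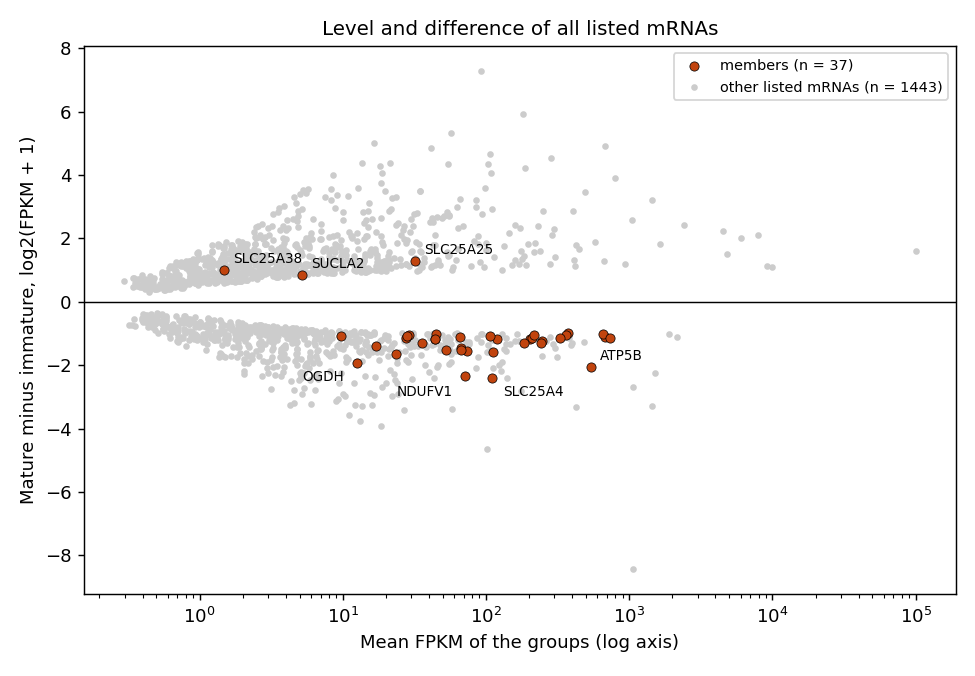
Mean FPKM of the groups (x axis, log scale) against the difference, mature minus immature livers on log2(FPKM + 1) (y axis), for each of the 37 members (orange) and the 1443 other listed mRNAs (grey). The 34 lower members form a band between -1.00 and -2.41, and SUCLA2, SLC25A38 and SLC25A25 lie above 0 with FPKM as deposited. No mRNA less than 2-fold apart is listed, so the edge of the band at -1.00 is set by the listing. SUCLA2 is at -0.085 with the summed FPKM made equal, and at 0.763 with the 10 most abundant mRNAs left out of the sums.

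Complex I, the NADH dehydrogenase at the entry of the respiratory chain, had 11 of 46 subunit and assembly factor names listed, and all 11 were at least 2-fold lower in mature livers. Their summed FPKM was 577 in mature and 1404 in immature livers, and their median difference was -1.18. NDUFV1, the subunit that binds NADH and the flavin cofactor, differed the most. It had 22.8 FPKM in mature and 119.6 FPKM in immature livers (-2.34) and lies on chromosome 5 (87692 to 95703 in the deposited coordinates, whose genome build could not be settled). NDUFS1, an iron-sulfur subunit that receives electrons from NDUFV1, had 69.1 FPKM in mature and 146 FPKM in immature livers (-1.07), the smallest difference within the complex. The level of NDUFS1 was thus 3.03 times that of NDUFV1 in mature livers and 1.22 times in immature livers.

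The core subunits on the path to ubiquinone were lower as well. NDUFS3 had 34.9 FPKM in mature and 98.2 FPKM in immature livers (-1.47). NDUFS7, which holds the last iron-sulfur cluster before ubiquinone, had 129 and 288 FPKM in mature and immature livers (-1.16). NDUFS8, another iron-sulfur subunit, had 8.96 FPKM in mature and 25.0 FPKM in immature livers (-1.38). It lies on chromosome 5 from 199389 to 201198, 103686 bases beyond the end of NDUFV1. The 5 core subunits had a median difference of -1.38.

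The 6 supernumerary subunits, which surround the core, had a median difference of -1.17. NDUFAB1, which is also the acyl carrier protein of mitochondrial fatty acid synthesis, had 27.0 FPKM in mature and 79.0 FPKM in immature livers (-1.52), the largest difference among them. NDUFA10 had 20.1 FPKM in mature and 51.4 FPKM in immature livers (-1.31). The other supernumerary subunits, NDUFS5, NDUFB5, NDUFB6 and NDUFA8, lay between -1.18 and -1.11. Their levels ran from 26.5 to 124 FPKM in mature livers and from 61.3 to 279 FPKM in immature livers. The core and supernumerary subunits overlapped in the size of their differences, and with 1 value per group no test between them was possible.

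None of the 8 names of complex II (succinate dehydrogenase and its assembly factors) was listed. In complex III, which passes electrons from ubiquinol to cytochrome c, 2 of 13 names were listed and both were lower. UQCRC1, a core protein, had 107 FPKM in mature and 265 FPKM in immature livers (-1.30). UQCRH, the hinge protein of the complex, was among the most abundant members, with 429.9 FPKM in mature and 925 FPKM in immature livers (-1.10).

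Complex IV, cytochrome c oxidase, had 3 of 24 names listed, all lower and all by close to 2-fold. COX6A1 had 437 FPKM in mature and 879 FPKM in immature livers (-1.01). COX4I1 had 250.3 and 501 FPKM in mature and immature livers (-1.00), a ratio of 2.00 that is the smallest in the whole table and the only lower member short of 2-fold once 1 is added to both values. The ratio of COX6A1 to COX4I1 was 1.74 in mature and 1.75 in immature livers. COX10, which is not a subunit but makes an intermediate of heme a for the complex, stood at a much lower level, with 5.85 FPKM in mature and 13.5 FPKM in immature livers (-1.08).

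ATP synthase had the largest difference in summed level among the respiratory complexes, with 659 FPKM in mature and 1878 FPKM in immature livers over 5 members. ATP5B, the catalytic beta subunit, made up much of it, with 208 FPKM in mature and 871 FPKM in immature livers (-2.06). ATP5A1, the alpha subunit that alternates with beta in the same ring, had 37.1 FPKM in mature and 109.9 FPKM in immature livers (-1.54) and lies on chromosome Z (2151294 to 2159356). The level of ATP5B was 5.60 times that of ATP5A1 in mature livers and 7.93 times in immature livers. ATP5G3, which encodes the c subunit of the proton-conducting ring, had 147 FPKM in mature and 347 FPKM in immature livers (-1.23). ATP5J, coupling factor 6 of the stalk, had 29.4 FPKM in mature and 60.7 FPKM in immature livers (-1.02). ENSGALG00000016007 has no gene symbol in the table, which annotates it with oxidative phosphorylation and ATP synthase activity. It had 237 FPKM in mature and 489 FPKM in immature livers (-1.04).

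**Figure D2:**
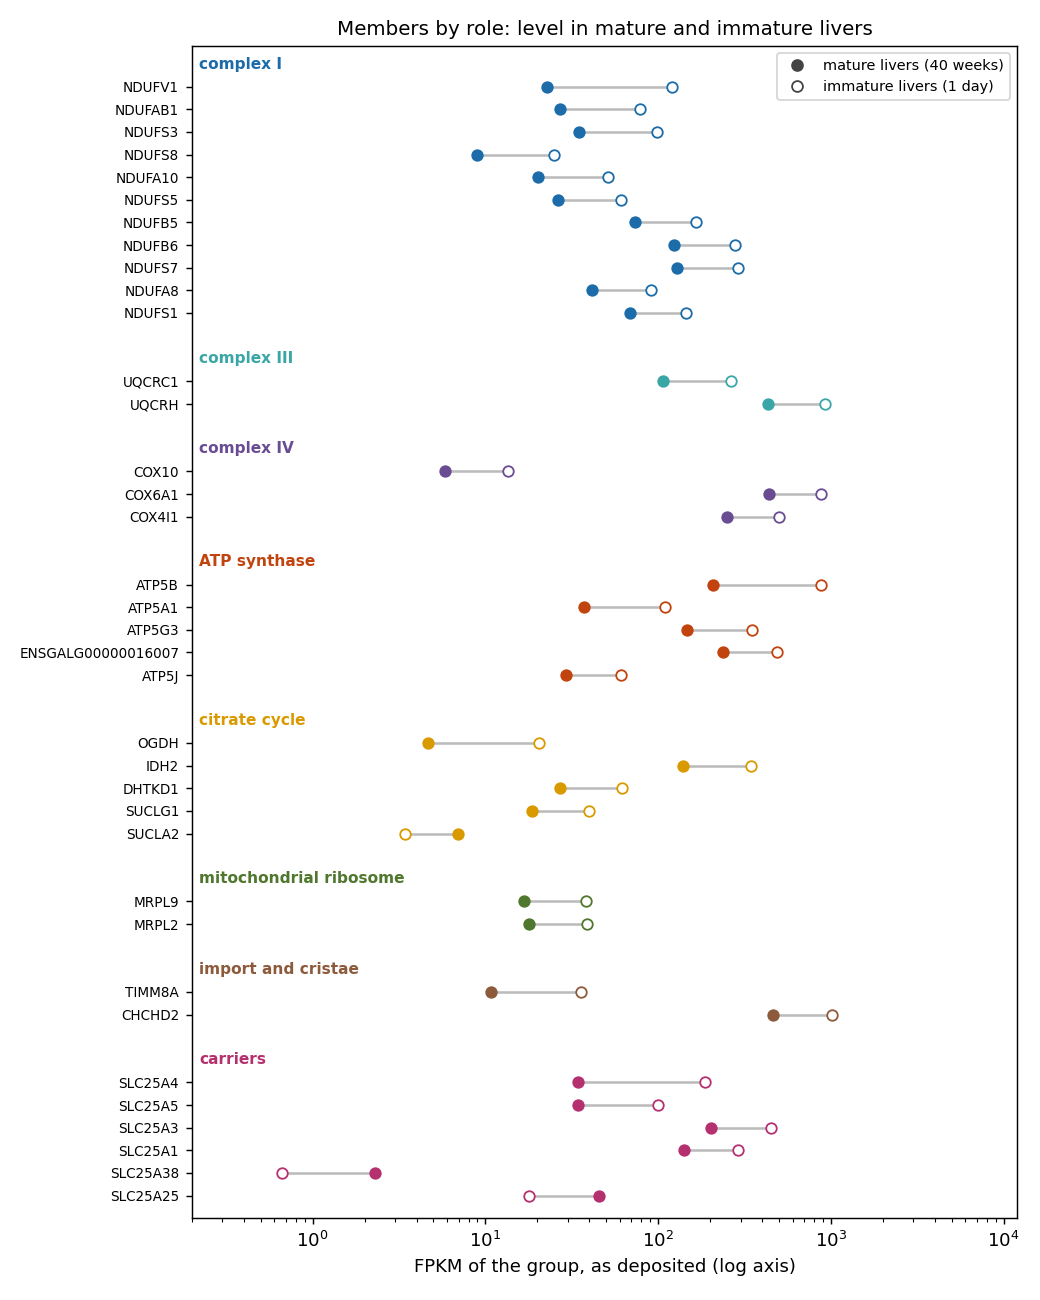
FPKM of 36 of the 37 members (x axis, log scale) in mature livers (filled circles) and immature livers (open circles), grouped by role; each circle is the authors' single value of a group. The mature value lies left of the immature one for 33 of those drawn and right of it for SUCLA2, SLC25A38 and SLC25A25 in the deposited FPKM. SUCLA2 changes side with the summed FPKM made equal, but not with the 10 most abundant mRNAs left out of the sums.

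The citrate cycle role held 6 members, 5 lower and 1 higher in mature livers. This count includes DHTKD1, placed here by its symbol. Of the 5 members with the KEGG term for the cycle, 4 were lower. OGDH, the first component of the 2-oxoglutarate dehydrogenase complex, differed the most, with 4.64 FPKM in mature and 20.3 FPKM in immature livers (-1.92; chromosome 22, 4027412 to 4048078). IDH2, the mitochondrial isocitrate dehydrogenase that makes NADPH, had 139 FPKM in mature and 343 FPKM in immature livers (-1.29). DHTKD1, a relative of OGDH that acts on 2-oxoadipate in lysine breakdown, had 26.9 FPKM in mature and 61.4 FPKM in immature livers (-1.16).

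The subunits of succinyl-CoA ligase, the step after OGDH, went in opposite directions. SUCLG1, the alpha subunit shared by both forms of the enzyme, had 18.6 FPKM in mature and 39.6 FPKM in immature livers (-1.05). SUCLA2, the beta subunit of the ADP-forming enzyme, had 6.93 FPKM in mature and 3.43 FPKM in immature livers (0.84), short of 2-fold on log2(FPKM + 1) but 2.02-fold higher in plain FPKM. Its direction depended on the scaling. The difference was -0.085 with the summed FPKM of all listed mRNAs made equal. It stayed above zero, at 0.763, with the 10 most abundant mRNAs left out of the sums. After scaling by the median of all listed mRNAs it was 0.196. The level of SUCLG1 was 2.68 times that of SUCLA2 in mature livers and 11.5 times in immature livers. SUCLG2, the GTP-forming beta subunit, was not listed. Other names of the cycle that the rule did not take were MDH2, with 54.1 FPKM in mature and 205 FPKM in immature livers (-1.90), and IDH3A, a subunit of the NAD-dependent isocitrate dehydrogenase. IDH3A had 2.85 FPKM in mature and 1.24 FPKM in immature livers (0.78). ATPAF2, an assembly factor of ATP synthase that the rule did not take either, had 4.02 FPKM in mature and 8.21 FPKM in immature livers (-0.88). The listed subunits of the NADPH-forming and the NADH-forming isocitrate dehydrogenase thus also stood on opposite sides in the deposited FPKM. IDH3A was at a lower level than SUCLA2, and its direction was not examined under the other scalings.

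The mitochondrial ribosome was represented by 2 proteins of its large subunit at closely similar levels. MRPL9 had 16.8 FPKM in mature and 38.2 FPKM in immature livers (-1.14), and MRPL2 had 17.9 FPKM in mature and 38.6 FPKM in immature livers (-1.07). No MRPS symbol was listed, so the table says nothing of the small subunit under these names. In import, TIMM8A, a small chaperone of the intermembrane space that guides hydrophobic proteins to the inner membrane, had 10.8 FPKM in mature and 36.0 FPKM in immature livers (-1.64). CHCHD2, a coiled-coil protein of the intermembrane space, had 463 FPKM in mature and 1017 FPKM in immature livers (-1.13). No TOMM symbol was listed.

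The carriers had the widest range of differences of any role, with 4 of 6 lower and 2 higher in mature livers. SLC25A4, an ADP/ATP translocase that exchanges ATP of the matrix for ADP of the cytosol, had the largest difference of all members. It had 34.3 FPKM in mature and 187 FPKM in immature livers (-2.41; chromosome 4, 38807036 to 38809857). Its close relative SLC25A5 had 34.4 FPKM in mature and 100.3 FPKM in immature livers (-1.52). The level of SLC25A4 was therefore 0.999 times that of SLC25A5 in mature livers and 1.87 times in immature livers. SLC25A3, the phosphate carrier that supplies ATP synthase, had 203 FPKM in mature and 452 FPKM in immature livers (-1.15). SLC25A1, which exports citrate for lipid synthesis, had 141 FPKM in mature and 289.7 FPKM in immature livers (-1.04).

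The higher carriers serve other transport steps. SLC25A25, a calcium-regulated exchanger of ATP-Mg for phosphate, had 45.5 FPKM in mature and 18.0 FPKM in immature livers (1.29), the only member at least 2-fold higher on log2(FPKM + 1). Its place by level among the 37 members was 17 in mature and 34 in immature livers. SLC25A38, a glycine carrier needed for heme synthesis in red cell precursors, had 2.31 FPKM in mature and 0.666 FPKM in immature livers (0.99). In plain FPKM it was 3.47-fold higher, the largest ratio of the 3 higher members, at the lowest level of all members. After scaling by the median of all listed mRNAs the difference of SLC25A38 was 0.35. It was 0.31 with the summed FPKM of all listed mRNAs made equal. With the most abundant mRNAs left out of the sums it was 0.93.

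**Figure D3:**
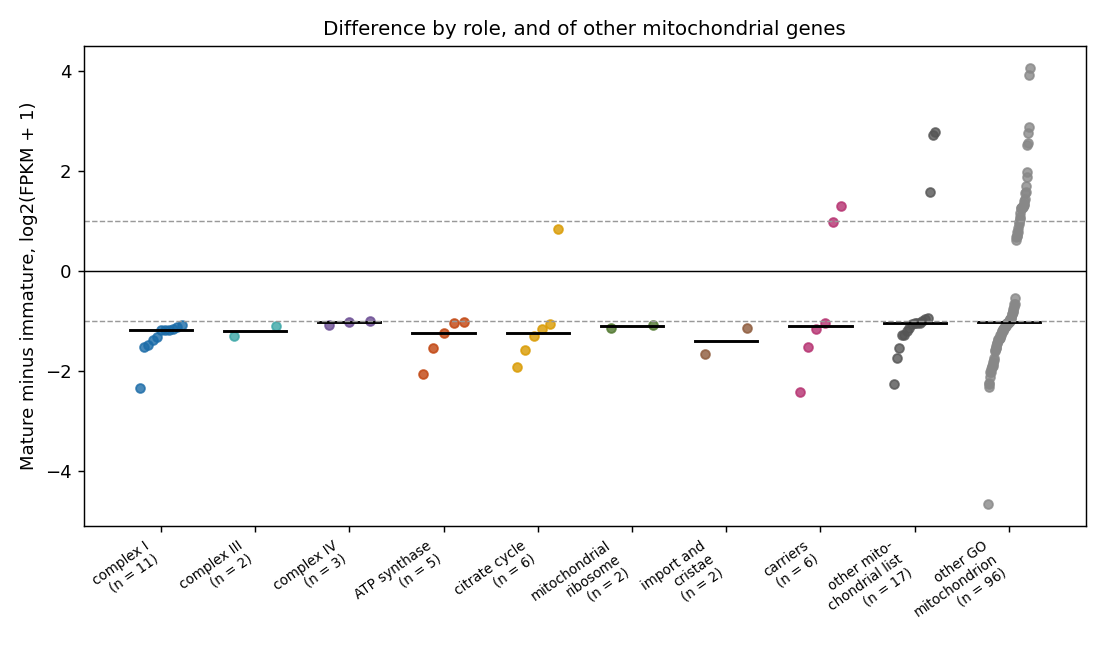
Difference, mature minus immature livers on log2(FPKM + 1) (y axis), of each member by role, and of 17 listed genes of a list of other mitochondrial functions and 96 other listed mRNAs with the GO term mitochondrion (the last groups overlap). Points are single mRNAs, bars are medians and dashed lines mark 2-fold. All medians shown lie between -1.01 and -1.39, and most points above 1 belong to the genes outside the members.

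Other mitochondrial genes were mostly lower as well. A list of 106 genes covered mitochondrial DNA upkeep, translation, chaperones, cofactors, membrane shape, antioxidants and pyruvate entry. Under the names searched 17 were listed, 14 lower and 3 higher, with a median difference of -1.03. Among all 1480 listed mRNAs 45.1% were lower. The list was written with earlier results of these data known. All 4 listed genes of mitochondrial translation were lower. Among them LRPPRC, which stabilises mitochondrial mRNAs, had 6.14 FPKM in mature and 19.8 FPKM in immature livers (-1.54), and the elongation factor GFM1 had 6.86 FPKM in mature and 18.0 FPKM in immature livers (-1.28). The leucyl and threonyl tRNA synthetases LARS2 and TARS2 differed by -0.93 and -1.03. All 5 listed chaperones and proteases were lower too, from PMPCA, a subunit of the peptidase that trims imported proteins (-1.20), through PHB (-1.14), TRAP1 (-1.03) and HSPA9 (-1.00) to PITRM1 (-0.96).

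Genes that shape the inner membrane and feed the chain had mixed directions. OPA1, which fuses inner membranes, had 6.52 FPKM in mature and 17.2 FPKM in immature livers (-1.28), and IMMT, which organises cristae, had 9.35 FPKM in mature and 20.4 FPKM in immature livers (-1.05). PDSS1, which starts the side chain of coenzyme Q, had 2.70 FPKM in mature and 16.6 FPKM in immature livers (-2.25). COQ10B, a coenzyme Q-binding protein, had 96.4 FPKM in mature and 13.8 FPKM in immature livers (2.72). The iron-sulfur protein ISCA1 had 25.5 FPKM in mature and 7.90 FPKM in immature livers (1.57).

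At the entry of pyruvate, MPC1, a subunit of the mitochondrial pyruvate carrier, had 144 FPKM in mature and 483 FPKM in immature livers (-1.74). PDK4, a kinase that switches off pyruvate dehydrogenase, had 165 FPKM in mature and 23.3 FPKM in immature livers (2.77). PPRC1, a coactivator of mitochondrial gene programmes, was the only one of 7 regulators listed, with 0.826 FPKM in mature and 2.73 FPKM in immature livers (-1.03). None of the 11 genes of mitochondrial DNA upkeep was listed under the names searched. The helicase on that list was searched as TWNK, and its older name PEO1 was listed and is given under the other observations.

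By annotation, 35 of the 37 members carried the GO term mitochondrion. This follows from the mitochondrial gene families and KEGG pathways of the rule and is no separate check. Among 96 other listed mRNAs with this term, 63 were lower and 33 higher in mature livers (65.6% lower, against 45.1% of all listed mRNAs). Of those with a mean FPKM of at least 10, 41 of 53 (77.4%) were lower, set beside 33 of 34 members at that level. The GO terms of 116 of the 1480 mRNAs were not analysed here. With 1 value per group the difference between these shares was not tested over samples.

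Markers of other cells of the liver also differed between the groups. Of 20 markers of erythroid cells, 3 were listed, all lower, and their summed FPKM was 7.98 in mature and 41.2 in immature livers. Most of it was TFRC, the transferrin receptor, which dividing cells also use, with 7.33 FPKM in mature and 35.7 FPKM in immature livers. HBE1, a globin of red cells, had 0.0909 FPKM in mature and 3.99 FPKM in immature livers. Of 8 markers of proliferating cells, 5 were listed, all lower, with a sum of 8.71 FPKM in mature and 94.9 FPKM in immature livers, led by CDK1 with 3.76 FPKM in mature and 49.8 FPKM in immature livers. Of 10 macrophage markers, 6 were listed, all higher, with a sum of 834 FPKM in mature and 132 FPKM in immature livers. CTSS led them with 442 FPKM in mature and 60.0 FPKM in immature livers, followed by C1QA with 268 FPKM in mature and 49.0 FPKM in immature livers. Of 8 T and natural killer cell markers 3 were listed, all higher, with a sum of 45.2 FPKM in mature and 1.45 FPKM in immature livers, mostly CD3D with 35.4 FPKM in mature and 0.872 FPKM in immature livers. Of 7 endothelial markers 3 were listed, VWF and LYVE1 higher and STAB2 lower, with a sum of 59.6 FPKM in mature and 31.4 FPKM in immature livers. The only listed stellate cell marker of 9 was COL1A2, with 8.82 FPKM in mature and 52.5 FPKM in immature livers, and the only B cell marker of 5 was BLK, with 1.07 FPKM in mature and 0.456 FPKM in immature livers. None of 5 cholangiocyte markers was listed. No listed marker was at 0 in either group. The part of these cells in the differences of the mitochondrial genes was not tested. Of 15 hepatocyte markers only AHSG and CYP7A1 were listed, with 269 and 4.22 FPKM in mature livers, against 2625 and 40.1 FPKM in immature livers, so the liver label could not be checked further.

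The FPKM are those of single assembled transcripts, and other transcripts of the same gene may not be listed. Reads of near-identical relatives may be shared, which makes the levels of SLC25A4, SLC25A5, ATP5G3 and UQCRH uncertain.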

How the data were processed

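Total RNA of 6 liver libraries (3 mature, 3 immature) was sequenced after ribosomal RNA removal. The authors deposited FPKM, 1 value per group and transcript, for transcripts they had called differentially expressed. By the study's methods, the authors mapped reads with TopHat and Bowtie2 2.0.6, took FPKM from StringTie and called differences with DESeq by a p-value and a 2-fold change. The submitters' notes name Cufflinks and Cuffdiff instead of StringTie, and the listed transcripts are named TCONS, where the study names its lncRNAs MSTRG. Which tool made the deposited FPKM and which made the calls is therefore unsure, as is how libraries were combined. The build of the deposited coordinates is unsure too. The deposited columns of the authors' fold changes, direction, p-values and significance were not used.

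From the FPKM, log2(FPKM + 1) was compared between groups with pandas 2.3.3 and numpy 2.4.6 (Python 3.11.15). Counts past 2-fold are descriptions. No test was possible with 1 value per group. No bird was in both groups, so the libraries do not pair by bird. The counting functions were tested on simulated data. Every member is named except 1, which is counted but not reported singly here; of the other lists, single genes are named where listed, and of markers up to 3 of the most abundant per cell type. The members and lists were chosen with earlier results of these data known. Alternatives changed the pseudocount, level filter, scaling, fold, row per gene and member rule.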

Additional observations from a re-analysis of the deposited data

How the results depend on the processing

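Of the members that entered, SUCLA2 alone changed direction, to -0.085 after scaling by the summed FPKM of all listed mRNAs. Only a scaling could change a direction, and all 3 lowered the mature values, so no lower member could turn higher. The alternatives were pseudocounts of 0.1, 0.01 and none, a mean FPKM of at least 1 or 10, 3 scalings, a fold of 1.5 or 4, 1 row per symbol, and members by KEGG term or by symbol only; no pseudocount and the scaling by all summed FPKM were chosen after seeing the data. No member repeats a symbol and all reach a mean FPKM of 1, so 1 row per symbol and the minimum of 1 could change no member. The count of 33 members at least 2-fold lower became 3 at 4-fold and 19 with members by KEGG term only, where fewer members enter. The 1 member at least 2-fold higher became 2 with a pseudocount of 0.1, 3 with 0.01, with none and at 1.5-fold, and 0 at 4-fold, by KEGG term only and after scaling by the median or by the summed FPKM of all listed mRNAs. The median scaling shifted every difference by -0.64 and the members' median to -1.80. Scaling by the sum of all listed mRNAs (mature FPKM times 0.459) shifted the median of all listed mRNAs by -0.66 and the members' median to -2.27. Without the 10 most abundant mRNAs the sums were closer (mature FPKM times 0.941), and the median of all listed mRNAs shifted by -0.06.

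No paired analysis was possible because the tables hold 1 value per group; leaving out each library could not be run for the same reason. The unknown number of fragments behind each value limits the mRNAs of lowest level, SLC25A38 and SUCLA2 among the members and such as IDH3A outside them.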

Other observations

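Some listed mRNAs outside the members, chosen after their values were seen, bear on the same organelle. HIGD1A, a small inner-membrane protein known in mammals as induced by low oxygen, had 21.8 FPKM in mature and 88.0 FPKM in immature livers (-1.96 on log2(FPKM + 1)). DAP3, a protein of the small subunit of the mitochondrial ribosome, had 10.6 FPKM in mature and 31.6 FPKM in immature livers (-1.48), beside the large-subunit members MRPL2 and MRPL9. PEO1, the helicase of mitochondrial DNA under an older name, had 7.52 FPKM in mature and 24.4 FPKM in immature livers (-1.57). C15orf48, in mammals a relative of the cytochrome c oxidase subunit NDUFA4, went the other way, with 9.38 FPKM in mature and 0.4196 FPKM in immature livers (2.87).

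Of the 37 members, 2 had a listed lncRNA within 100 kb in the deposited coordinates. The same share was not counted over all listed mRNAs, so whether 2 is many or few is unknown. TCONS_00029133, an intergenic lncRNA 4934 bases from SLC25A38 on chromosome 2 (44960396 to 44961248), had 0.933 FPKM in mature and 0.0282 FPKM in immature livers. TCONS_00000275, 64941 bases from DHTKD1 on chromosome 1, had 2.51 FPKM in mature and 1.00 FPKM in immature livers, while DHTKD1 itself was lower in mature livers.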
